A study of Mus musculus with 9 samples.

Results

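The expression of 9 interferon response genes was followed in mouse extra-embryonic endoderm stem (XEN) cells with and without a deletion upstream of Xist. The genes were chosen by name, as 2 sensors of viral RNA (Ddx58 and Ifih1), 2 transcription factors (Irf7 and Stat2) and 5 effectors (Isg15, Ifit1, Ifit3, Bst2 and Oasl2), and all 9 were found among the 55401 genes of the main count table. XEN cells are stem cells of the primitive endoderm lineage of the early embryo, and the labels describe these as a female line from a Mus musculus molossinus by Mus musculus cross. RNA-seq read counts were compared between the wild type WT_EV (n = 3), the group DXp, in which the paternal X carries the deletion (n = 2), and the group DXp_DXm, in which both copies carry it (n = 2). The labels name no treatment, and do not spell out EV. The titles call both DXp libraries D1 and both DXp_DXm libraries D3, so each genotype may be 1 clone, and a clone's own traits and its genotype then cannot be told apart. The series describes 2 biological replicates of each deletion and says nothing of how the WT_EV libraries relate, so the p-values cover no more than the spread among these samples, which may be technical. A further 2 libraries of wild-type clones, WT_clone, are in a separate table that was held in part and lists 1 of the 9 genes, Ifih1, and some genes of the wider pathway.

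Interferons are secreted when a cell senses foreign nucleic acid. RIG-I, encoded by Ddx58, and MDA5, encoded by Ifih1, bind double-stranded RNA in the cytoplasm and signal through the adaptor MAVS to the factors IRF3 and IRF7, which switch on interferon genes. Secreted interferon then acts through its receptor and the kinases JAK1 and TYK2 on a complex with STAT2 and IRF9 that binds the interferon-stimulated response element in the promoters of effector genes. Pluripotent stem cells are known for a weak interferon response.

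The promoters are shown because this response element is what the group has in common on paper, although the genes were chosen by name and not by sequence. RefSeq promoter windows (GRCm38.p6, from 250 bases before to 50 bases after the start of transcription) were found for all 9 genes. The core of the element, searched on either strand as GAAA, any 2 bases and another GAAA, was present in 7 of the 9 windows and in 3.44% of 32851 windows of the same length. It was not found in Irf7 or Oasl2. The gamma-activated sequence TTCNNNGAA, which reads alike on both strands, was found in 1, Bst2, and in 8.30% of all windows. TATAAA on the gene's strand was found in 2, Ddx58 and Irf7, and in 8.32% of all windows. The 250 bases before the start are given below in the direction of transcription for the 4 genes whose counts could be tested and for Isg15, with matches to that core in capitals. They lie at chr4:40239826-40240075 (minus strand) for Ddx58, chr10:128270248-128270497 (plus strand) for Stat2, chr8:71537473-71537722 (minus strand) for Bst2, chr5:114896684-114896933 (plus strand) for Oasl2 and chr4:156200819-156201068 (minus strand) for Isg15.
Ddx58: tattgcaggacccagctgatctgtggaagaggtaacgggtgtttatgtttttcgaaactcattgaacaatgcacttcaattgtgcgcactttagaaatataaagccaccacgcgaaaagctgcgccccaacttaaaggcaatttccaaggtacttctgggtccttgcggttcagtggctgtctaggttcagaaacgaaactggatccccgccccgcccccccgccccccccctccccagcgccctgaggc
Stat2: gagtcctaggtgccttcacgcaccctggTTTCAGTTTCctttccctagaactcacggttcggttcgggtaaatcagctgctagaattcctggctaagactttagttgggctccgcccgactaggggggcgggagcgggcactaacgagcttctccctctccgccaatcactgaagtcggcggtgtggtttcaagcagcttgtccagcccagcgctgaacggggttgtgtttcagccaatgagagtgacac
Bst2: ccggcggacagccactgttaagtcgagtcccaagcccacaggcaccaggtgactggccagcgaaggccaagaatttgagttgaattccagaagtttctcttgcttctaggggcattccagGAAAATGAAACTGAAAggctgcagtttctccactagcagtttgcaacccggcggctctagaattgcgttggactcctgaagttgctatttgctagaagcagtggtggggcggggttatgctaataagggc
Oasl2: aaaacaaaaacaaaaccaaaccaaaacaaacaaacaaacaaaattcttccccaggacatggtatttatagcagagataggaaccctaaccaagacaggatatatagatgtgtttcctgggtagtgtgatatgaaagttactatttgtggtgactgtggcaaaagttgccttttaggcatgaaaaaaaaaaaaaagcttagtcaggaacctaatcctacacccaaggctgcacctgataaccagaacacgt
Isg15: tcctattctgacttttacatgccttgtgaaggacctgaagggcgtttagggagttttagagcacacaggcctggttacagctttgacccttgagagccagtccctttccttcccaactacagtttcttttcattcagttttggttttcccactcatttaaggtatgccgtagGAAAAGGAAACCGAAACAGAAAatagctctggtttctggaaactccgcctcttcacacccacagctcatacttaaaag
In Isg15 there are 3 overlapping matches, the first beginning 78 bases before the start, and in Bst2 there are 2, of which the first begins 130 bases before it. The single Stat2 match begins 222 bases before the start. Ddx58 has its match, tttcgatttc, just after the start, 3 bases into the transcript, and Ifih1 has gaaacagaaa 33 bases into it, both outside the stretch shown. The RefSeq starts differ by some bases from those of the count table's annotation. A match is a description of the sequence and not evidence of binding.

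The 7 libraries held 14352719 to 19833044 counts in WT_EV, 24586135 to 29335803 in DXp and 25589912 to 27334893 in DXp_DXm. Of 12 endoderm markers such as Gata4, Gata6 and Sox17, all averaged over 1 CPM (read counts divided by library size, with TMM factors), with a summed level of 27400 to 35300 CPM in WT_EV, 13300 to 26400 in DXp and 18900 to 21700 in DXp_DXm. The largest parts of that sum in WT_EV were Lama1 (mean 9810 CPM), Col4a1 (7810), Lamc1 (6200) and Sparc (3620). The 12 did not move together. Gata4 averaged 706 CPM in WT_EV, 132 in DXp and 102 in DXp_DXm, while Sox7 averaged 87.8, 205 and 292. Within DXp, Col4a1 had 0 counts in replicate 1 and 51355 in replicate 2, against 23204 to 284971 in the other libraries. The 8 immune markers summed to 3.26 to 3.78 CPM in WT_EV, 1.35 to 1.38 in DXp and 0.707 to 1.95 in DXp_DXm, with Itgam and Adgre1 among those at 0 in every library. The 7 fibroblast markers summed to at most 1.69 CPM, with Col1a2, Col3a1, Thy1 and Twist1 at 0. The 5 pluripotency markers summed to at most 0.759 CPM, the 5 trophoblast markers to at most 4.86 CPM, and the 3 endothelial markers to 16.3 to 52.4 CPM. The WT_EV libraries also differed from all deletion libraries in RNAs without a poly(A) tail. Rn7sk had 157188 to 255029 counts in WT_EV against 2 to 7 in the deletion libraries, and histone genes took 0.977 to 2.45% of counts against at most 0.00686%. Mitochondrial genes took 6.01 to 9.33% of counts in WT_EV, highest in replicate 3, and 1.41 to 3.79% in the deletion libraries, and their part in the results was not tested. Genotype and a difference in library preparation therefore cannot be told apart in any comparison with WT_EV, and fits with an offset for each transcript's GC content and length are given beside the main ones. In these bulk samples, fewer cells of a type and less RNA per cell cannot be told apart.

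**Figure D1:**
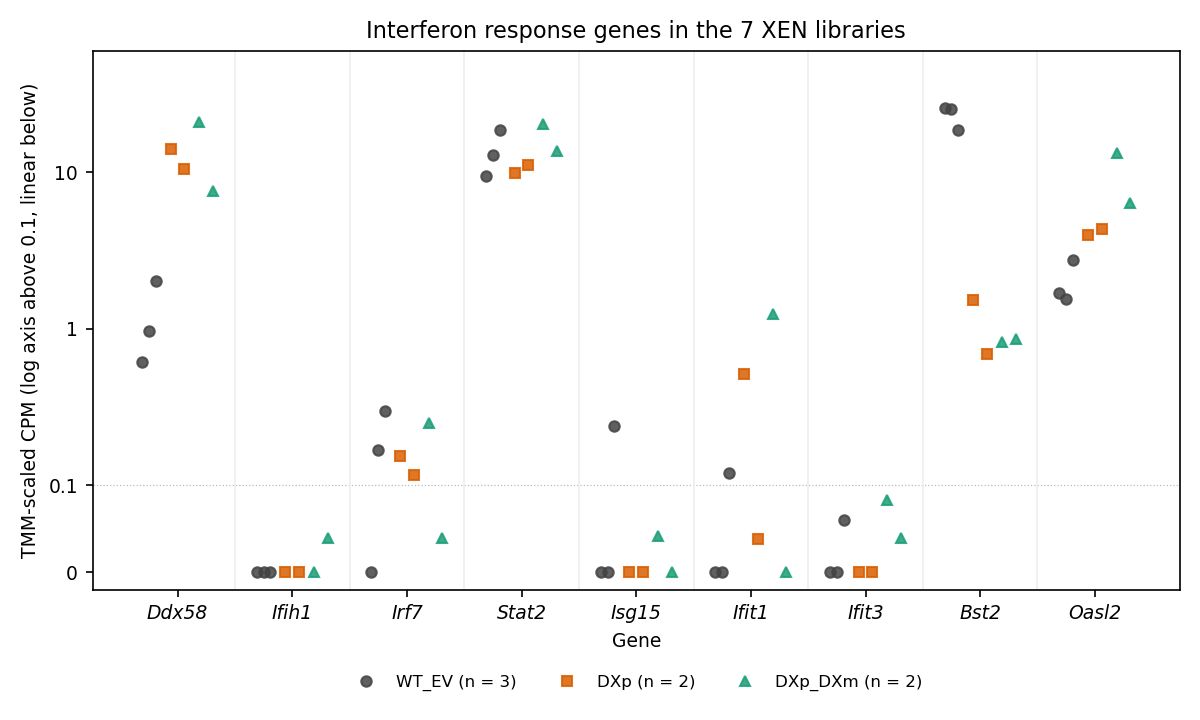
Level of each of the 9 genes in TMM-scaled CPM (vertical axis, logarithmic above 0.1 and linear below) in each library of WT_EV, DXp and DXp_DXm, 1 point per library. Ifih1, Irf7, Isg15, Ifit1 and Ifit3 lie at or below 1.24 CPM in all 7 libraries, while Ddx58 is higher and Bst2 lower in every deletion library than in every WT_EV library.

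Of the 9 genes, 5 had between 0 and 30 counts per library and did not reach the filter on low counts, so they were not tested. They include Isg15 and Ifit1, effectors that are among the most strongly induced genes in an interferon response. The 4 genes that were tested were Ddx58, Stat2, Bst2 and Oasl2, and they did not move together. Against WT_EV, Ddx58 rose in both deletion groups, Oasl2 rose in DXp_DXm, Bst2 fell in both, and Stat2 did not pass in either.

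Among the sensors, Ifih1 (ENSMUSG00000026896, chromosome 2, 62595798 to 62646255, minus strand, GRCm38) was not seen in 6 of the 7 libraries and had 1 count in DXp_DXm replicate 2. A count of 0 over the group allows a level of up to 0.0516 CPM in WT_EV and 0.066 CPM in DXp, counting error only. In the WT_clone libraries Ifih1 had 0 and 2 counts, which was too few for the planned comparison with the clones.

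The other sensor, Ddx58 (ENSMUSG00000040296, chromosome 4, 40203773 to 40239828, minus strand), reached the filter. The WT_EV libraries had 0.619, 0.970 and 2.04 CPM. The DXp libraries had 14.1 and 10.5 CPM, and for DXp_DXm the level was 21.1 CPM in replicate 1 but 7.58 CPM in replicate 2. All 4 deletion libraries lay above all WT_EV libraries, and the homozygous libraries differed more from each other than the DXp libraries did. The mean rose from 1.21 ± 0.740 CPM (SD, n = 3) to 12.3 ± 2.53 CPM (n = 2) with the paternal deletion, which is 10.2-fold or a log2 change of 3.35 (SE 0.57, 95% interval 2.09 to 4.62, edgeR adjusted p 4.37e-04). In DXp_DXm it was 14.3 ± 9.56 CPM (n = 2), 11.9-fold above WT_EV, with a log2 value of 3.57 (SE 0.57, interval 2.30 to 4.84, edgeR adjusted p 3.75e-04). With the GC and length offset the changes were smaller and still passed in edgeR, at 2.47 in DXp (5.54-fold, adjusted p 0.00496) and 2.68 in DXp_DXm (6.42-fold, adjusted p 0.00438). Leaving out DXp_DXm replicate 1 left a log2 change of 2.72 in DXp_DXm (edgeR adjusted p 0.00431).

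Irf7 (ENSMUSG00000025498, chromosome 7, 141262706 to 141266481, minus strand), the factor that amplifies interferon production, was barely detected. It had 0, 4 and 5 counts in WT_EV, 3 and 3 in DXp, and 6 and 1 in DXp_DXm. These pool to 0.155 CPM in WT_EV (exact Poisson 95% interval 0.0708 to 0.294), 0.132 CPM in DXp (0.0484 to 0.287) and 0.141 CPM in DXp_DXm (0.0568 to 0.291). The intervals overlap throughout, and no difference was detectable at this depth. Irf7 also overlaps Phrf1, a gene on the opposite strand with 234 to 3122 counts per library, by 45 bases. How the counting treated strand is not stated, so reads of the pair cannot be told apart in those bases.

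Stat2 (ENSMUSG00000040033, chromosome 10, 128270559 to 128292849, plus strand), a subunit of the factor that carries the interferon signal to the nucleus, was expressed in every library. Its level was 9.46, 12.9 and 18.8 CPM in WT_EV, 9.87 and 11.2 CPM in DXp, and 20.4 and 13.6 CPM in the DXp_DXm libraries. Both deletion groups overlapped WT_EV, the DXp libraries lying inside its range, while both DXp_DXm libraries lay above both DXp libraries. The log2 change against WT_EV was -0.38 in DXp (interval -1.19 to 0.43, edgeR adjusted p 0.365) and 0.31 in DXp_DXm (interval -0.48 to 1.11, edgeR adjusted p 0.458). The sign in DXp depended on the scaling, since with the GC and length offset the change was 0.55 (interval -0.26 to 1.36, edgeR adjusted p 0.228). In DXp_DXm the offset gave 0.94 (interval 0.14 to 1.74, edgeR adjusted p 0.0589).

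Of the effectors, Isg15 (ENSMUSG00000035692, chromosome 4, 156199455 to 156200796, minus strand), a ubiquitin-like protein that is attached to other proteins, had 0, 0 and 4 counts in WT_EV, none in DXp, and 1 and 0 in DXp_DXm. The group of DXp libraries allows a level of up to 0.066 CPM. Ifit3 (ENSMUSG00000074896, chromosome 19, 34583531 to 34588731, plus strand), which with Ifit1 forms complexes that bind foreign RNA, had 0, 0 and 1 counts in WT_EV, none in DXp, and 2 and 1 in DXp_DXm. Ifit3 has a close copy in Ifit3b, so reads could be split between them or lost, and Ifit3b had 0 to 3 counts per library.

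Ifit1 (ENSMUSG00000034459, chromosome 19, 34640871 to 34650009, plus strand), which binds the end of RNAs that lack the host cap structure, was uneven between replicates. It had 0, 0 and 2 counts in WT_EV, 10 and 1 in the DXp libraries, and 30 in DXp_DXm replicate 1 against 0 in replicate 2. The highest level, 1.24 CPM in DXp_DXm replicate 1 (exact Poisson 95% interval 0.839 to 1.78), stood beside no count in the other library of the same genotype (up to 0.118 CPM). Without the filter on low counts, edgeR called Ifit1 in DXp_DXm against WT_EV, a log2 change of 3.93 (adjusted p 0.00121), a call that rests on this 1 library. In DXp against WT_EV the value without the filter was 2.71 (edgeR adjusted p 0.0530). Of all 27732 genes in the fit without the filter, 39.5% were called in DXp_DXm and 43.1% in DXp against WT_EV. None of the other untested genes passed in that fit.

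Bst2 (ENSMUSG00000046718, chromosome 8, 71534255 to 71537456, minus strand) encodes tetherin, a membrane protein that holds budding viruses on the cell surface. It had 26.0, 25.5 and 18.6 CPM in WT_EV. In DXp it had 1.53 and 0.695 CPM, and the homozygous libraries were at 0.829 and 0.864 CPM. Every deletion library was far below every WT_EV library. The mean fell from 23.4 ± 4.10 CPM (SD, n = 3) to 1.11 ± 0.593 CPM (n = 2) with the paternal deletion, 21.2-fold lower or a log2 change of -4.40 (SE 0.46, interval -5.44 to -3.37, edgeR adjusted p 2.05e-05). In DXp_DXm it was 0.847 ± 0.0247 CPM (n = 2), 27.4-fold lower, with a log2 value of -4.78 (SE 0.47, interval -5.83 to -3.72, edgeR adjusted p 2.31e-05). With the GC and length offset the fall was smaller, at -1.92 in DXp_DXm (3.79-fold lower, edgeR adjusted p 0.00542), and in DXp the value of -1.05 did not pass (edgeR adjusted p 0.0510). Bst2 is GC-rich and short, with 55.3% GC and 903 exon bases, against 46.6% GC and 7050 bases for Ddx58.

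Oasl2 (ENSMUSG00000029561, chromosome 5, 114896936 to 114912234, plus strand), a member of the oligoadenylate synthetase family, had 1.69, 1.56 and 2.76 CPM in WT_EV. Its level was 3.99 and 4.36 CPM in the DXp libraries and 13.3 and 6.36 CPM in the DXp_DXm libraries. The 3 groups did not overlap, with WT_EV lowest and DXp_DXm highest. Oasl2 rose from 2.003 ± 0.658 CPM (n = 3) to 9.84 ± 4.91 CPM (n = 2) with both copies deleted, 4.92-fold or a log2 change of 2.30 (SE 0.46, interval 1.27 to 3.32, edgeR adjusted p 0.00150), or 2.12 with the offset (edgeR adjusted p 0.00445). In DXp, at 4.18 ± 0.265 CPM (n = 2), the log2 change of 1.06 did not pass (SE 0.46, interval 0.03 to 2.09, edgeR adjusted p 0.0598). It did pass with DESeq2, at 1.22 (adjusted p 0.0209). Leaving out WT_EV replicate 3 also brought it past the threshold (1.36, edgeR adjusted p 0.0273). Leaving out WT_EV replicate 1 (0.957, edgeR adjusted p 0.150) or WT_EV replicate 2 (0.909, edgeR adjusted p 0.165) did not. The change was 1.22 without DXp replicate 1 and 0.997 without DXp replicate 2. It was 1.14 without DXp_DXm replicate 1 and 1.06 without DXp_DXm replicate 2. These fits without a deletion library leave a single library in its group, so whether they passed is not given.

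**Figure D2:**
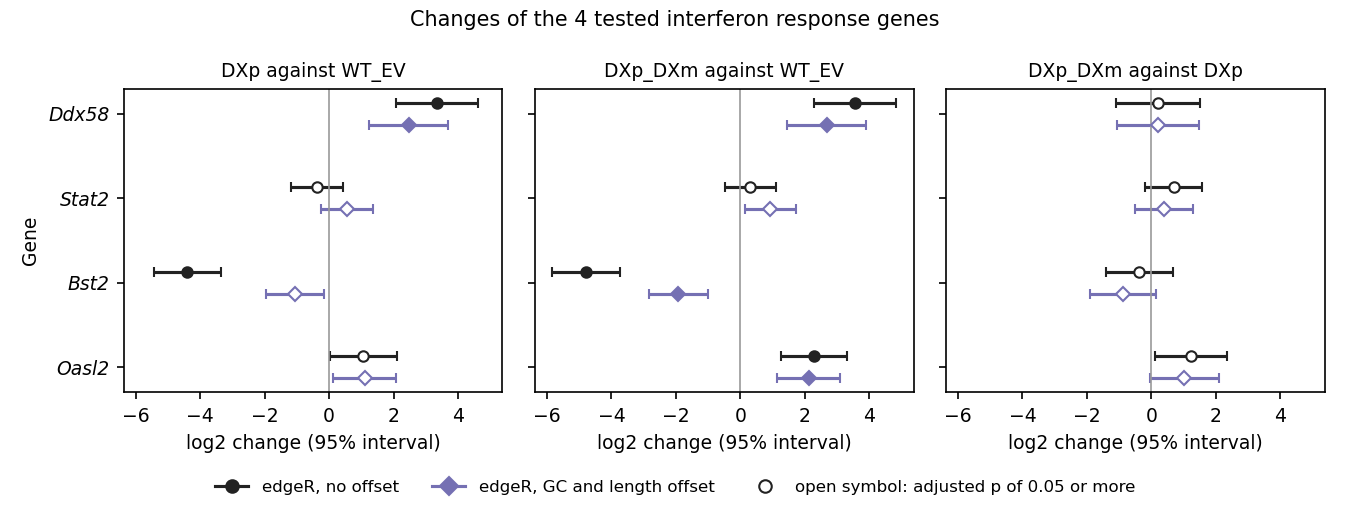
Log2 change with its 95% interval (horizontal axis) of the 4 tested genes in each of 3 comparisons, from edgeR without an offset (circles) and with a GC and length offset (diamonds); filled symbols passed at an adjusted p under 0.05. Bst2 in DXp moves from -4.40 to -1.05 with the offset, while Ddx58 stays above 0 in both comparisons with WT_EV, and no symbol is filled between the deletions.

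In all, 1 member rose (Ddx58) and 1 fell (Bst2) in DXp against WT_EV, where 72.3% of all 15331 genes tested were called, 32.2% higher and 40.1% lower. In DXp_DXm against WT_EV, 2 rose (Ddx58 and Oasl2) and 1 fell (Bst2), where 66.8% of all genes were called, 30.9% higher and 36% lower. The 2 and 3 calls among 4 tested genes are close to these shares. The median log2 change of the 4 was 0.34 in DXp and 1.30 in DXp_DXm, beside -0.35 and -0.15 over all genes. With the offset, 50.4% of all genes were called in DXp (25.5% higher, 24.8% lower) and 43.1% in DXp_DXm (22.6% higher, 20.4% lower). Of the 4 genes, Ddx58 alone passed there in DXp, and Ddx58, Oasl2 and Bst2 passed in DXp_DXm.

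The deletion groups both had at most 7 Rn7sk counts, so the difference in RNAs without a poly(A) tail was not seen between them. Comparing DXp_DXm with DXp, edgeR called none of the 4 genes, and 0.444% of all genes (0.28% higher, 0.163% lower). With the offset it again called none of the 4, and 0.222% of all genes (0.124% higher, 0.0978% lower). Without the offset 1 of the 4, Oasl2, had an unadjusted p under 0.05, and DESeq2 called none. The log2 change of Oasl2 was 1.23 (SE 0.51, interval 0.11 to 2.36, edgeR p 0.0348, adjusted p 0.203), with both DXp_DXm libraries above both DXp libraries. Without DXp_DXm replicate 1 it was 0.60 (edgeR adjusted p 0.696). The values for the others were 0.69 for Stat2 (interval -0.19 to 1.57, edgeR adjusted p 0.348), 0.22 for Ddx58 (interval -1.08 to 1.52, adjusted p 0.867) and -0.37 for Bst2 (interval -1.41 to 0.66, adjusted p 0.676). The sign for Ddx58 rested on DXp_DXm replicate 1, without which the change was -0.70. That of Bst2 rested on DXp replicate 1, without which it was 0.25. The intervals leave room for differences of more than 2-fold in either direction for Ddx58, so the deletions are not shown to be alike.

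Without the GC and length offset, the order of the genes changed with the group when levels were divided by exon length. With the offset the fall of Bst2 was smaller, 2.08-fold in DXp, where it did not pass, and 3.79-fold in DXp_DXm. The order with the offset was not worked out, and the levels here are those without it. In WT_EV, Bst2 stood first at 25.9 ± 4.54 CPM per kb (SD, n = 3), above Stat2 at 2.31 ± 0.795, Oasl2 at 0.314 ± 0.103 and Ddx58 at 0.172 ± 0.105. Bst2 was above 91.1% of protein-coding genes with any count there, and Ddx58 above 31.7%. In DXp (n = 2) Stat2 had 1.78 ± 0.159 CPM per kb, Ddx58 1.75 ± 0.358, Bst2 1.23 ± 0.657 and Oasl2 0.655 ± 0.0416. In DXp_DXm (n = 2) the order was Stat2 at 2.87 ± 0.808, Ddx58 at 2.04 ± 1.36, Oasl2 at 1.54 ± 0.771 and Bst2 at 0.938 ± 0.0273. In WT_EV neighbours in the order were apart by more than their SDs, except Oasl2 and Ddx58. In the deletion groups no neighbours were, and in DXp the means of Stat2 and Ddx58 were nearly equal. The median of 11935 tested protein-coding genes was 5.10 CPM per kb in WT_EV, 3.17 in DXp and 3.46 in DXp_DXm, so the 4 genes lay below it in each group, except Bst2 in WT_EV.

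Within DXp_DXm, replicate 1 was the higher library for Ddx58, Stat2, Oasl2, Ifit1, Irf7, Isg15 and Ifit3, the last 2 by a single count, and replicate 2 was higher for Bst2 and Ifih1. For Ddx58 the replicates had 509 and 193 counts at similar depth, and for Oasl2 321 and 162. In WT_EV, replicate 3 had the highest CPM of 7 of the 9 genes, with Bst2 lowest there and Ifih1 at 0 in all 3. These are differences between replicates of 1 group, and their cause was not tested.

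The genes with the most similar pattern over the 7 libraries included, for Ddx58, Inpp1 (Pearson r 0.995 of log2 CPM). For Bst2 they were Cisd3 (r 0.999) and Rps18 (r 0.999), for Oasl2 Ctcf (r 0.982) and Xrcc5 (r 0.982), and for Stat2 Cluap1 (r 0.944) and Smcr8 (r 0.928). Among 10237 genes compared, 562 had an r over 0.95 with Ddx58 and 1741 with Bst2, while 41 did with Oasl2 and none with Stat2. WT_EV and the deletion libraries differ in genotype and in RNAs without a poly(A) tail alike, so these values describe the 7 libraries only.

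The wider pathway was read from lists of genes by role that hold none of the 9 members. Of 120 symbols, 117 were found, 11 had no count in any library and 69 were tested. In DXp 32 of the 69 rose, 24 fell and the remaining 13 were not called. By comparison, 32.2% of all genes tested rose and 40.1% fell. Their median log2 change was 0.75, beside -0.35 over all genes. In DXp_DXm 29 rose and 20 fell, with 20 not called, where 30.9% of all genes rose and 36% fell (median 1.06, or 1.04 with bounds in place of fitted values where a group had 0 counts, beside -0.15). With the offset 30 rose and 6 fell in DXp (25.5% and 24.8% of all genes), and 24 rose and 4 fell in DXp_DXm (22.6% and 20.4%), with medians of 1.10 and 0.82 beside -0.02 and 0.06 over all genes. Between the deletions edgeR called none of the 69. At an unadjusted p under 0.05 there were 13, or 18.8%, beside 20.8% of all genes, and DESeq2 called 5, or 7.25%, beside 7.12%. The shares of all genes given here are the background for each list that follows.

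The interferon genes were at or near 0. Ifnb1, Ifna4, Ifne, Ifng, Ifnl2 and Ifnl3 had no count in any of the 7 libraries, Ifna2 had 1 count in all, and Ifnk had 0 to 2 per library. Receptor genes were present, and of 5 tested 3 rose and none fell in each deletion group. Ifnar1, a chain of the type I receptor, rose from 40.6 ± 2.80 CPM (n = 3) to 105 ± 27.9 CPM in DXp (n = 2, log2 1.37, SE 0.24, edgeR adjusted p 5.70e-04), or 1.68 with the offset. Ifngr1, of the interferon gamma receptor, rose by 2.51 in DXp and 1.90 in DXp_DXm, or 2.83 and 1.96 with the offset.

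Of 13 tested sensors and adaptors, 4 rose and 6 fell in DXp, and 5 rose and 5 fell in DXp_DXm. With the offset 3 rose and 2 fell in DXp, and 2 rose and none fell in DXp_DXm. Mavs, the adaptor on which both RNA sensors depend, fell from 20.3 ± 4.90 CPM (n = 3) to 2.78 ± 0.331 CPM (n = 2) with the paternal deletion, or by a log2 change of -2.87 (SE 0.37, edgeR adjusted p 7.41e-05). With the offset it did not pass, at -0.73 (edgeR adjusted p 0.0816). Mavs is among the genes held for the wild-type clones, where without the offset 40.2% of 3302 shared genes were called in DXp against WT_clone. Its value there was -2.60 (edgeR adjusted p 4.50e-04), and with the offset it did not pass, at -0.71 (edgeR adjusted p 0.187). With the offset 14.7% of the shared genes were called in that comparison. Irf3, the factor downstream of MAVS, fell by 3.03 on the log2 scale in DXp without the offset and had a value of 0.00 with it (edgeR adjusted p 0.995). Tank, which binds the kinase TBK1 and its TRAF partners, rose by 2.55 in DXp, and its value with the offset was 0.52 (edgeR adjusted p 0.133). Tank was also higher in the wild-type clones than in WT_EV (log2 1.18, edgeR adjusted p 0.0266, with 30.6% of the shared genes called), and DXp against the clones did not pass (0.99, adjusted p 0.0638). Between the deletions Tlr3, the endosomal sensor of double-stranded RNA, stood at 0.378 ± 0.0435 CPM in DXp (n = 2) but at 9.36 ± 3.07 CPM in DXp_DXm (n = 2). This log2 difference of 4.61 (SE 1.01) did not pass (edgeR adjusted p 0.0650), and WT_EV had 1.33 ± 1.55 CPM (n = 3). Of 8 tested kinases and transcription factors, 4 rose and 3 fell in each deletion group. With the offset 4 rose and none fell in DXp, and 3 rose and 1 fell in DXp_DXm. Jak2 and Jak1 rose in DXp, by 3.14 and 1.70, and by 1.81 and 1.10 with the offset. Tyk2 fell by 3.61 on the log2 scale there, and with the offset it did not pass, at -0.98 (edgeR adjusted p 0.0504).

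Of 7 tested negative regulators, 2 rose and 5 fell in DXp and 2 rose and 4 fell in DXp_DXm, and with the offset 1 rose and 1 fell in DXp and 1 rose in DXp_DXm. Ptpn6, which encodes the phosphatase SHP-1, fell from 9.99 ± 0.196 CPM (n = 3) to 0.179 ± 0.0354 CPM in DXp (n = 2), and was at 1.31 ± 0.136 CPM in DXp_DXm (n = 2). The log2 change in DXp was -5.77 (SE 0.53, edgeR adjusted p 9.27e-06), or -3.22 with the offset. In DXp_DXm the change was -2.92 (edgeR adjusted p 2.08e-04), and with the offset it did not pass, at -0.70 (edgeR adjusted p 0.157). Between the deletions the Ptpn6 difference of 2.85 did not pass (edgeR adjusted p 0.0526). Irf2bp1, a partner of IRF2, fell by 5.02 on the log2 scale in DXp, and with the offset it did not pass, at -0.85 (edgeR adjusted p 0.194). Of the 3 tested genes of ISG15 conjugation, 2 rose in DXp and none passed in DXp_DXm. Ube2l6, the conjugating enzyme, rose from 0.324 ± 0.345 CPM (n = 3) to 1.78 ± 0.880 CPM (n = 2) with the paternal deletion, a log2 value of 2.49 (edgeR adjusted p 0.0221), or 3.66 with the offset (adjusted p 0.00636). Against the wild-type clones its DXp value of 1.69 did not pass (edgeR adjusted p 0.205). Herc6, the mouse ISG15 ligase gene, had no count in WT_EV and 78 and 12 counts in the DXp libraries (2.23 ± 2.49 CPM, n = 2). That is at least 43.1-fold higher, taking 3 counts over all WT_EV libraries as the floor (edgeR adjusted p 0.00135). Herc6 had 2 and 3 counts in DXp_DXm, so it reached the filter on low counts through the DXp libraries alone. Its bound and p therefore rest on the values that let it be tested, and are a description only. Without DXp replicate 1 the bound was 8.98-fold, and without replicate 2 it was 77.3-fold. Isg15 itself was at 0 counts in both DXp libraries.

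Of 56 other effectors, 27 did not reach the filter, and 2 of those had no count at all. Those 27 summed to 0.464 to 0.660 CPM in WT_EV, 1.20 to 2.15 CPM in DXp and 1.26 to 2.94 CPM in DXp_DXm, and 9, 16 and 21 of them had any count in the 3 groups. The deletion libraries were also the deeper ones, which bears on the number of genes with a count. Over all genes, 19480 to 20320 had a count per WT_EV library, 18909 and 19651 in DXp, and 20374 and 20215 in DXp_DXm. The same sum and count over all genes below the filter were not taken, so the values of the 27 are a description only. Among the 27, Rsad2 had 1 count over all 7 libraries, Oas1a had 2 and Cxcl10 had 0 to 4 per library. Mx1, a GTPase that blocks viruses, had 0, 0 and 1 counts in WT_EV, 5 and 11 in DXp, and 7 in each DXp_DXm library. Of the 29 tested, 16 rose and 8 fell in DXp, and 13 rose and 7 fell in DXp_DXm, or 12 and 3, and 11 and 3, with the offset. Dtx3l, a ubiquitin ligase that works with PARP9, rose from 0.102 ± 0.0924 CPM (n = 3) to 5.05 ± 2.83 CPM with the paternal deletion (n = 2, log2 5.54, SE 0.83, edgeR adjusted p 1.96e-04), or 4.60 with the offset. With 0, 3 and 3 counts in WT_EV, Dtx3l reached the filter through the deletion libraries alone. Adar, which edits double-stranded RNA, fell by 2.89 on the log2 scale in DXp_DXm, and by 1.80 with the offset. Against the wild-type clones its DXp_DXm value was -2.28 (edgeR adjusted p 0.00786, with 25% of the shared genes called). With the offset Adar did not pass there, at -0.80 (edgeR adjusted p 0.34, with 5.84% called). The clones against WT_EV did not pass for Adar without the offset (-1.03, edgeR adjusted p 0.102). Znfx1, a helicase that binds viral RNA, fell by 2.97 on the log2 scale in DXp, where it did not pass with the offset, at -0.82 (edgeR adjusted p 0.0988). In DXp_DXm its change was -3.115, and with the offset it passed, at -1.14 (edgeR adjusted p 0.0369). Against the wild-type clones its values were -3.105 in DXp (edgeR adjusted p 9.6e-04) and -3.291 in DXp_DXm (edgeR adjusted p 0.00115). With the offset neither passed there, at -0.87 (edgeR adjusted p 0.214) and -1.245 (edgeR adjusted p 0.137). Of the shared genes, 40.2% and 25% were called there, or 14.7% and 5.84% with the offset. Of 4 tested antigen presentation genes, 1 rose and 2 fell in DXp and 2 rose and 1 fell in DXp_DXm, while with the offset all 4 rose in both. B2m, the light chain of class I molecules, rose in both deletion groups, by 2.33 in DXp and 1.60 in DXp_DXm, or 1.64 and 1.07 with the offset. B2m was also higher in the wild-type clones than in WT_EV (log2 1.56, edgeR adjusted p 0.00954). Neither deletion passed against the clones, at 0.39 for DXp (edgeR adjusted p 0.456) and -0.37 for DXp_DXm (adjusted p 0.526). In those comparisons 40.2% and 25% of the shared genes were called. H2-D1, a class I heavy chain, changed sign with the offset, from -1.38 to 1.59 in DXp and from -1.04 to 1.57 in DXp_DXm.

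**Figure D3:**
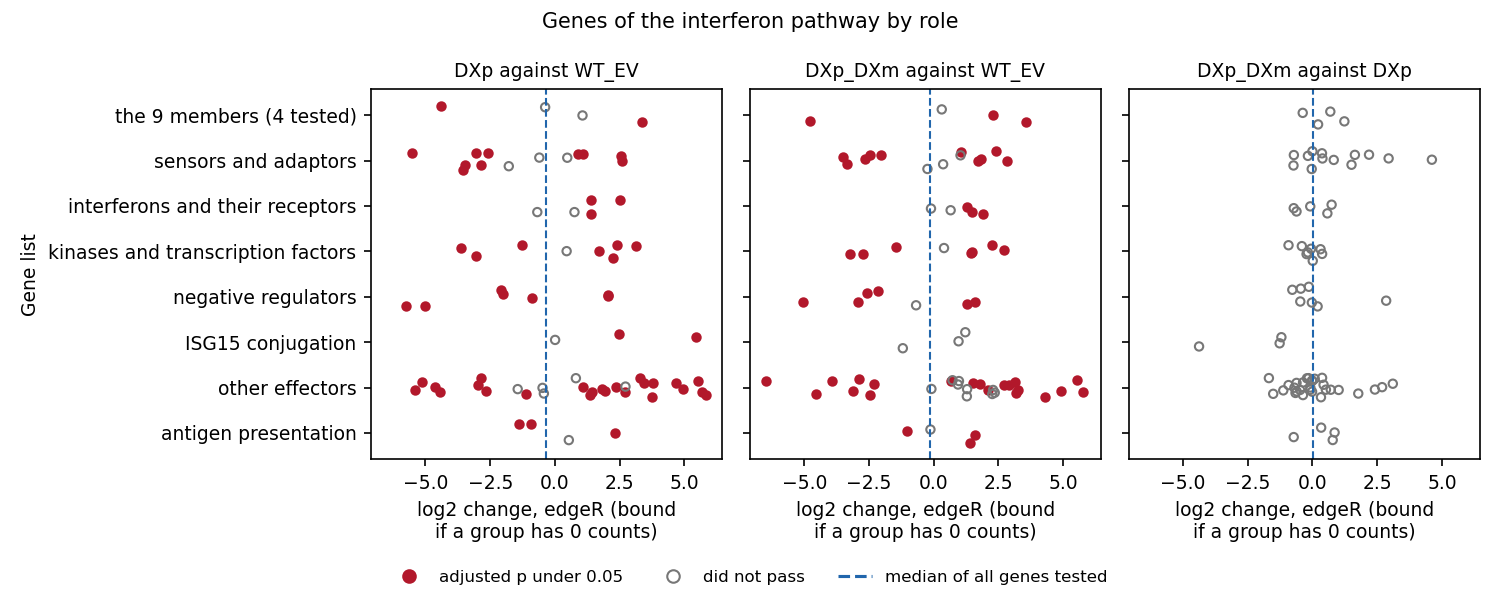
Log2 change of each tested gene (horizontal axis, edgeR without offset, set to the bound where a group has 0 counts) by role in the pathway, 1 point per gene, in 3 comparisons; filled points passed at an adjusted p under 0.05 and the dashed line is the median of all genes tested. Genes of most roles lie on both sides of the line in the comparisons with WT_EV, the tested genes of receptors in DXp lie at -0.68 and above, and no point is filled between the deletions.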

How the data were processed

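RNA-seq libraries of XEN cells were grouped by their titles into WT_EV (n = 3), DXp (n = 2), DXp_DXm (n = 2) and WT_clone (n = 2). What the authors deposited are raw counts of reads for each gene, made with STAR 2.7.9a and featureCounts 2.0.1 on GRCm38 (mm10), per the submitters' processing notes. The exon length per gene comes from the deposited table, per the file headers. Strand setting, multi-mapping rule and annotation release: not given in the sources used here. Symbols and the GC content of each gene's longest transcript came from GENCODE M21, where 55141 of 55401 genes matched. The clone table was held in part (11512 genes) and shares 1 of the 9 genes, Ifih1, which was too low for its 3 planned tests.

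Genes were kept with filterByExpr (minimum count 10), leaving 15331. A gene could be kept through the libraries of a single group where it is high. With TMM scaling, the robust quasi-likelihood test of edgeR 4.0.16 (R 4.3.3) was fitted over all 7 libraries with group as the term, with Benjamini-Hochberg adjustment and a threshold of 0.05. The biological coefficient of variation was 33.7%. The SE is the log2 change divided by the root of F, and 95% intervals use the degrees of freedom of the test, so they follow the unadjusted p. For the offset, each gene's log2 CPM in a library was taken as its deviation from the gene's mean over the libraries. These deviations were smoothed on GC content and length (mgcv 1.9.3), and 20 tested genes with no GC value got no offset. A group difference that follows GC content or length is therefore taken out as well. DESeq2 1.42.0 was an alternative, as were RLE scaling, scaling on protein-coding genes, no filter, a replicate block, fits of 2 groups and leaving out each library. The bound for Herc6 without each DXp library was added after seeing the data. The clone table was compared on the 3302 shared genes that passed the filter, with TMM on those genes. Poisson intervals and floors of 3 counts cover counting error only. The code was tested on simulated data. Of 3-fold changes, 45% were recovered in DXp against WT_EV and 28% in DXp_DXm against DXp. Of 1.5-fold changes, 0% were recovered in either. In the simulation 100 of the 15331 genes changed by each fold and the rest were equal between groups, with a fixed dispersion. In the data, 72.3% of genes were called in DXp against WT_EV, so the recovered shares do not measure the sensitivity of that comparison. Replicates differed by more than sampling noise, with a chi-square per degree of freedom of 37.9 to 163.

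The members and lists were chosen with earlier results of these data known. Every member is named with all its values. Of each list, the up to 3 genes with the lowest p per comparison could be named. The examples of untested list genes were chosen after their values were seen. One item that these rules name is not reported here. Similar genes were the 2 with the highest Pearson correlation of log2 CPM (prior count 2) with a mean of at least 2 CPM, without symbols of Gm plus digits or ending in Rik. Marker lists covered endoderm, immune, fibroblast, pluripotency, trophoblast and endothelial cells.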

Additional observations from a re-analysis of the deposited data

How the results depend on the processing

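For DXp against WT_EV the number of members higher, 1, became 2 with DESeq2, 2 with RLE size factors, 2 in the fit of only the 2 groups, 2 with the replicate block and 2 with the replicate block and offset, through Oasl2 each time (1.22, 1.22, 1.18, 1.37 and 1.42). The number lower, 1, became 0 with the GC and length offset and 0 with the replicate block and offset, through Bst2 (-1.05 and -1.17). Leaving out 1 library gave 1 to 2 higher and 1 to 1 lower members in DXp, 2 to 2 and 1 to 1 in DXp_DXm, and 0 to 0 between the deletions. Under the 15 alternatives run, Ddx58 passed against WT_EV in both deletion groups in all 15, with log2 changes of 2.47 to 3.93 in DXp and 2.68 to 4.15 in DXp_DXm. Bst2 and Oasl2 passed in DXp_DXm in all 15, at -4.92 to -1.92 and 1.74 to 2.73. Stat2 in DXp turned from -0.38 to 0.55 with the offset and 0.92 with the replicate block and offset, and in DXp_DXm it passed in 1 fit, that with the block and offset (1.30, edgeR adjusted p 0.0237). Between the deletions, leaving out 1 library moved Ddx58 from 0.22 to between -0.70 (without DXp_DXm replicate 1) and 0.78, and Bst2 from -0.37 to between -0.85 and 0.25 (without DXp replicate 1).

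The labels give replicate numbers but no pairing. Number 3 occurs in WT_EV alone, so a replicate block gives that library no weight in the comparisons, much as leaving it out does. For Oasl2 in DXp the block gave 1.37, and leaving out WT_EV replicate 3 gave 1.36. Same-numbered libraries correlated in their deviations from the group means by 0.082 for WT_EV and DXp_DXm, -0.066 for WT_EV and DXp and -0.201 for the deletions, and a crossed pairing of the deletions, added after seeing the data, called 1573 genes in place of 68, none of them a member. The titles of the DXp libraries carry a second number in the opposite order. The counts of all genes called moved most between the deletions: 68 became 34 with the offset, 1091 with DESeq2, 1436 without the filter, 28 with the replicate block and offset, 20 in the fit of 2 groups and 1 to 494 when 1 library was left out. RLE scaling turned the split there from 43 higher and 25 lower to 33 and 36, and moved the median of all genes in DXp from -0.35 to -0.20. In DXp 11079 became 6967 with the block and offset, and in DXp_DXm 10243 became 6604 with the offset and 5686 with the block and offset. The alternatives planned for Ifih1 against the wild-type clones could not be run, since its 0 to 2 counts did not reach the filter. Depth limits the 5 low genes, for which no difference could be tested.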
